A study of Mus musculus with 23 samples.

Results

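The genes described here are 41 junction genes of epithelia: 17 claudins, 7 other tight junction genes, 6 desmosomal cadherins, 5 desmosomal plaque genes, and 6 genes of a group that holds 5 cadherins and Epcam. The rule is a list of names, and each was read through the array probes whose RefSeq accession belongs to it. All 41 had a named probe, and 39 were among the 16324 genes that passed a filter on dim probes. Cldn18 was not well above background on any array. Cldn19 was above background on 1 or 2 arrays of each group and never on all arrays of one, so neither was tested.

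Tight junctions seal the space between neighbouring epithelial cells, and their claudins set which ions and molecules can pass. Desmosomes tie the keratin filaments of neighbouring cells together through desmogleins and desmocollins, which plakophilins, plakoglobin and desmoplakin anchor in the cell, and they are abundant in epidermis. Classical cadherins hold cells together at adherens junctions, with E-cadherin typical of epithelia and N-cadherin and cadherin 11 typical of mesenchymal cells.

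The arrays, 1-colour Agilent mouse arrays, measured RNA of the lacrimal gland (LG, which makes the watery part of tears), the harderian gland (HG, a lipid-secreting gland of the orbit) and the eyelid with the conjunctiva of the eye. All mice were of the background strain B6/CL, with no genotype or treatment named. At embryonic day 16.5 each of the 3 tissues was separated into epithelium and mesenchyme, with 3 arrays for each of these 6 groups, and the 7-week groups are the entire LG (2 arrays) and the entire HG (3 arrays), which hold every cell type of the gland. The labels do not say whether arrays of a group came from separate animals, so the spread behind each p-value is that between arrays, which may be technical.

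Levels are log2 intensity minus the 75th percentile of the array, and they can be compared between arrays for 1 gene but not between genes. On single arrays, 42.4 to 64.6 percent of spots stood well above background. The adult LG arrays were the dimmest, with 75th percentiles of 194 and 139 intensity units against 313 to 857 on the others. The tissue labels were checked with 18 epithelium markers that hold no junction gene described here. All 18 were higher in epithelium than in mesenchyme in each tissue. Their summed level, in units of the array's 75th percentile, was 401 to 448 in LG epithelium and 401 to 437 in HG epithelium, and 1653 to 1916 in eyelid epithelium. It was 8.15 to 17.4 in LG mesenchyme, 7.57 to 32.3 in HG mesenchyme and 154 to 369 in eyelid mesenchyme. The number of arrays limits the precision of every difference.

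Sequence upstream of the genes was available in RefSeq (GRCm38.p6) for 23 of the 41, as 34 windows of 250 bases that end at a transcript start. No window was given for Cdh1, Cdh2, Cdh3, Cdh11, Cdh13, Cldn8, Cldn9, Cldn23, Dsc1, Dsc2, Dsc3, Dsg1a, Dsg2, Dsg3, Marveld3, Pkp1, Pkp2 and Pkp3. The 4 windows printed here belong to genes that were higher in epithelium in all 3 tissues, 3 with and 1 without the E-box CAGGTG. That 6-base motif is bound by zinc-finger repressors such as those of the Snail and Zeb families. Capitals mark CAGGTG, or CACCTG where it lies on the other strand, and each sequence runs 5′ to 3′ on the strand of its gene.
Cldn4, chr5:134946935-134947184, minus strand: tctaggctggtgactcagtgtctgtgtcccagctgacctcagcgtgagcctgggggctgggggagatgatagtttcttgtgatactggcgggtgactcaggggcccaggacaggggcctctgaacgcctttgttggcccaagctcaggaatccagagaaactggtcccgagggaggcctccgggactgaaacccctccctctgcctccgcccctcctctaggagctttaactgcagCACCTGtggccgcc
Cldn6, chr17:23679115-23679364, plus strand: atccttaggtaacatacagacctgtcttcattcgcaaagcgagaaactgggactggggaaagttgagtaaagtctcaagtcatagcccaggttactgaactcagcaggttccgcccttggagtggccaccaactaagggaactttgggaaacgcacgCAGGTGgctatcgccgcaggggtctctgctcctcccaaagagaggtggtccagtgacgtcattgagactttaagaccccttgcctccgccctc
Epcam, chr17:87635729-87635978, plus strand: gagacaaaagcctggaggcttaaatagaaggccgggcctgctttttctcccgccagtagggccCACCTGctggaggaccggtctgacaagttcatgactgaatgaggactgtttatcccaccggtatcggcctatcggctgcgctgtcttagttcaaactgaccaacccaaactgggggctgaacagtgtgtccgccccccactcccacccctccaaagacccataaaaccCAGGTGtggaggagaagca
Dsp, chr13:38151044-38151293, plus strand: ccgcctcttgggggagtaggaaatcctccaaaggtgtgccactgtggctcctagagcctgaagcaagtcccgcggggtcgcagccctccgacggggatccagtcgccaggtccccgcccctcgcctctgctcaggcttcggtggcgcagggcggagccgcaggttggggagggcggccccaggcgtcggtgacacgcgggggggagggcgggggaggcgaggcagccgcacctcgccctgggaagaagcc
The motif lay 14 bases before the start in Cldn4, 93 in Cldn6, and 187 and 19 in Epcam. On either strand it was in 9 of the 34 windows (26.5%), from 8 genes (Cldn4, Cldn6, Cldn7, Cldn14, Ocln, Tjp3, F11r and Epcam), and in 17.2% of the 32851 windows of all genes. The GC box GGGCGG was in 21 of the 34 windows (61.8%) from 17 genes and in 32.7% of all windows. The palindrome AACCGGTT, a form of the site bound by Grainyhead-like factors, was in none of the 34 and in 0.116% of all windows. No motif contains another. A match is a string of letters and not a measured site.

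Across the 3 embryonic tissues together, junction genes stood mainly on the epithelial side. Of the 39 tested, 30 were called higher in epithelium (adjusted p under 0.05), where 38.7% of all genes were, and 3 were called lower, where 32% were. Their median log2 difference was 2.79, against 0.09 over all genes. In bulk tissue, fewer cells of a type and less RNA per cell cannot be told apart. By tissue, 29 were higher and 5 lower in LG epithelium (background 32.1% and 26.5%), 25 and 5 in HG epithelium (29.8% and 28.1%), and 29 and 3 in eyelid epithelium (25.7% and 25.5%). The medians were 2.84, 2.0 and 2.90, against 0.11, 0.03 and 0.05 over all genes. The 30 over the tissues and the 29 of the eyelid include Dsc1 and Dsg3. Both passed the filter through eyelid epithelium alone, so their direction there was built into their being tested. With a stricter filter on dim probes, 28 were higher over the tissues and 27 in the eyelid. The 24 called higher in epithelium in each of the 3 tissues, a pattern of 12.6% of all genes, are named by role in what follows, and Cdh2 and Cdh11 were lower in each (14.9% of all genes).

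**Figure D1:**
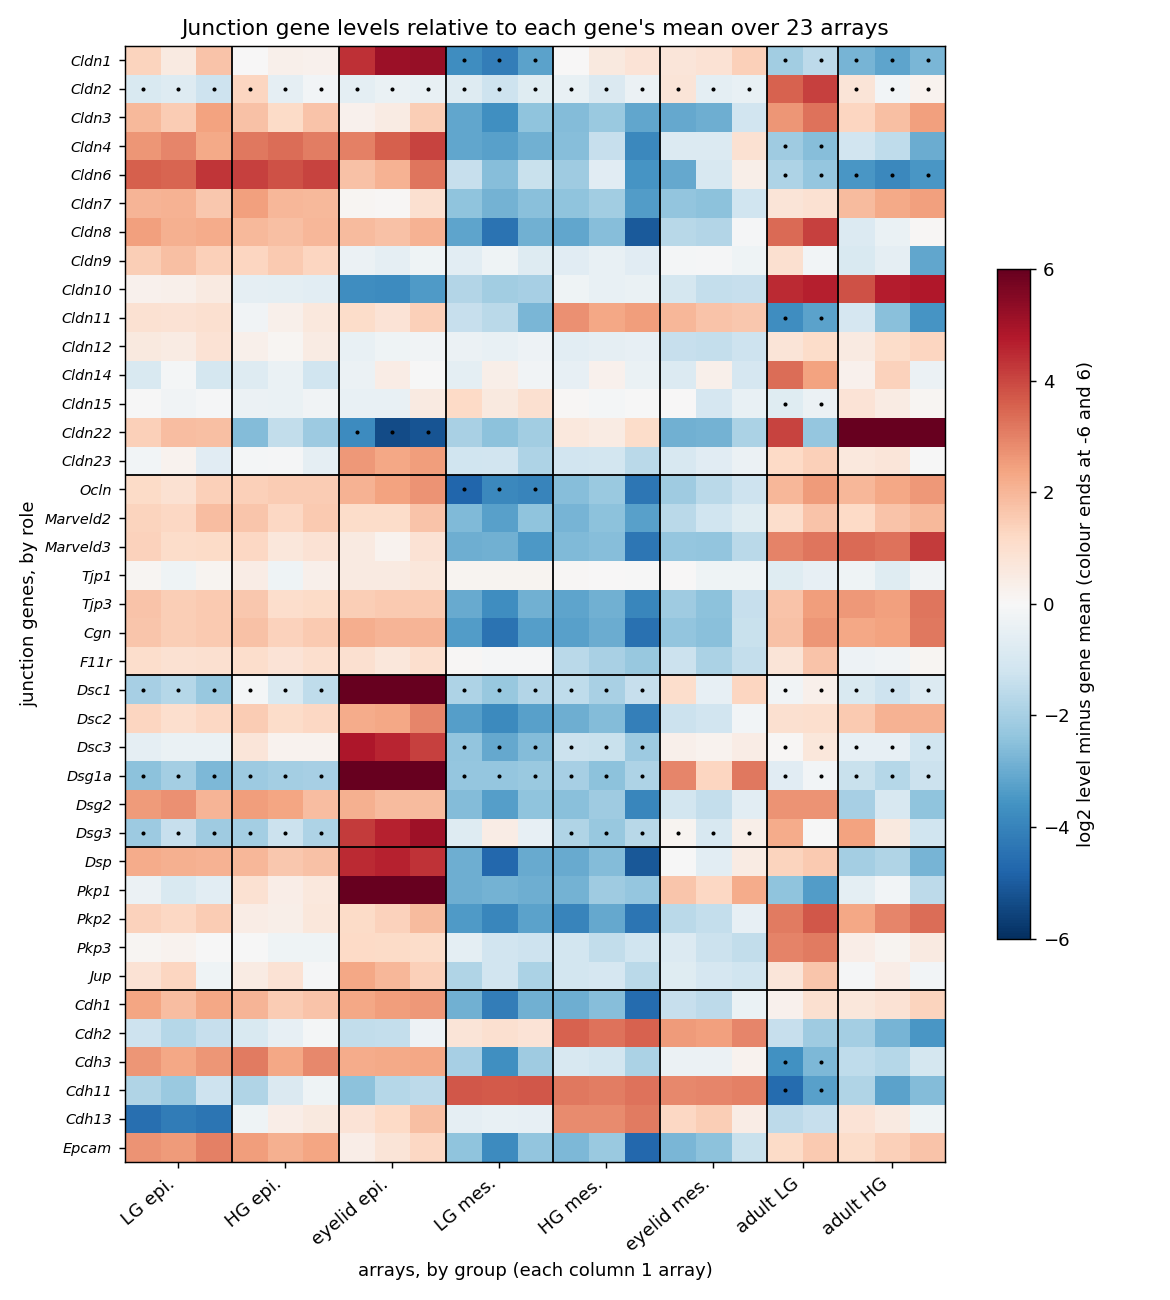
Heat map of the 39 tested junction genes (rows, by role) on 23 arrays (columns, by group); colour is the log2 level minus the gene's mean over all arrays, and dots mark groups in which the probe was not well above background on any array. Most rows are red in the 3 epithelia and blue in the 3 mesenchymes, whereas Cldn10 is high in both adult glands, Cldn2 and Cldn14 in adult LG, Cldn22 in adult HG, and Dsc1, Dsg1a and Pkp1 in eyelid epithelium.

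Claudins, the sealing and pore-forming strands of tight junctions, included genes higher in all 3 epithelia and genes that differed by tissue. Cldn3, Cldn4, Cldn6, Cldn7, Cldn8, Cldn12 and Cldn23 were higher in epithelium in each tissue, and with the mean over tissues Cldn1 and Cldn9 brought the count to 9 of 15 claudins, with 0 lower. Cldn4, a claudin that lowers sodium passage, read 1.23, 1.53 and 0.88 on the LG epithelium arrays and -4.51, -4.69 and -4.30 on those of LG mesenchyme. In the HG its levels were 1.73, 1.92 and 1.64 in epithelium and -3.97, -2.78 and -5.30 in mesenchyme. In the eyelid they were 1.59, 2.18 and 2.66, and -2.23, -2.22 and -0.49. The 2 compartments did not overlap in any tissue, and the gap was narrowest in the eyelid. The log2 differences of Cldn4 were 5.71 ± 0.56 (SE; adjusted p = 6.57e-08) in the LG, 5.78 ± 0.56 (6.76e-08) in the HG and 3.79 ± 0.56 (1.32e-05) in the eyelid. Cldn6, an early embryonic claudin, differed by 5.53, 6.12 and 3.59 in the same order, Cldn8 by 5.78, 5.48 and 3.07, and Cldn3 by 5.04, 4.18 and 3.15. Cldn7, a claudin of lateral membranes, differed by 4.52, 4.74 and 2.39. Cldn12 had the smallest of these differences in the LG, HG and eyelid, between 0.88 and 1.03, and Cldn23 differed by 1.19, 1.05 and 3.14.

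The other tight junction genes were all 7 higher in epithelium with the mean over tissues, from 0.25 for Tjp1 to 4.86 for Cgn. Ocln and Marveld2 (tricellulin), membrane proteins of the strands and of the corners where cells meet, and the related Marveld3 were higher in each tissue, as were the scaffold gene Tjp3, the cytoskeletal linker cingulin (Cgn) and the adhesion molecule F11r. Cgn read 2.67, 2.48 and 2.56 in LG epithelium against -2.37, -3.43 and -2.29 in LG mesenchyme. It read 2.75, 2.39 and 2.56 against -2.26, -1.99 and -3.50 in the HG, and 3.17, 3.05 and 3.01 against -1.37, -1.53 and -0.34 in the eyelid. No compartments overlapped, and the differences were 5.27 ± 0.39, 5.15 ± 0.39 and 4.15 ± 0.39. Ocln was not well above background in LG mesenchyme, where it was at least 21.3-fold lower than in LG epithelium (adjusted p = 2.39e-09), a bound set by the dimmest detectable probes of those arrays. Its differences were 4.53 in the HG and 4.07 in the eyelid. Tjp3 differed by 4.80, 4.62 and 3.54, and it overlaps the gene Apba3 on the genome. Tjp1, the scaffold ZO-1, was present at close levels in both compartments: it read 2.43, 2.08 and 2.51 in LG epithelium and 2.49, 2.51 and 2.5 in LG mesenchyme. It was called only in the eyelid, by 0.75 ± 0.17 (adjusted p = 0.00135). Its call for the mean over tissues ended without any 1 of 12 of the 18 embryonic arrays, with adjusted p up to 0.0861.

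All 6 desmosomal cadherins and all 5 plaque genes were called higher in epithelium with the mean over tissues. Dsc1 and Dsg3 passed the filter through eyelid epithelium alone, so a higher value there was built into their being tested. Dsg1a passed it through the eyelid groups alone. Dsc2 and Dsg2, the desmosomal cadherins of simple epithelia, were higher in each tissue, Dsg2 by 5.21, 5.09 and 3.02 and Dsc2 by 4.64, 4.50 and 3.37 in LG, HG and eyelid. Dsp, desmoplakin, the link to keratin filaments, read 4.71, 4.61 and 4.58 in LG epithelium and -0.43, -2.21 and -0.55 in LG mesenchyme. In the HG it read 4.45, 4.12 and 4.25 against -0.54, -0.12 and -2.59, and in the eyelid 6.96, 7.11 and 6.81 against 2.45, 1.85 and 2.99. Its differences of 5.70 ± 0.51, 5.36 ± 0.51 and 4.53 ± 0.51 were all called, and no arrays overlapped. A second Dsp probe gave 4.15 in the LG and 3.45 in the HG. The plakophilins Pkp1, Pkp2 and Pkp3 and plakoglobin (Jup) were higher in each tissue, Pkp2 by 4.91, 4.31 and 2.67 and Pkp3 by 1.09, 1.09 and 2.35. Dsc3 was higher in each too, although in the glands only bounds of 1.52-fold (LG) and 1.77-fold (HG) can be given, because it was not well above background in gland mesenchyme. Dsc1 (6.11) and Dsg1a (5.67) were called in the eyelid alone and were not well above background in either compartment of the glands. Dsg3 was at least 21.7-fold higher in eyelid epithelium and was called lower in LG epithelium by a bound of 1.08-fold (adjusted p = 0.0470), with 1 LG mesenchyme array above background. That LG call ended with the replicate block (0.0535) and without LG epithelium replicate 1 or 3 or LG mesenchyme replicate 2 or 3 (up to 0.170), and a second probe gave -0.06.

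The cadherins split. E-cadherin (Cdh1), the main adhesion molecule of epithelia, read 4.11, 3.63 and 4.08 in LG epithelium and -1.10, -2.37 and -1.10 in LG mesenchyme, a difference of 5.46 ± 0.44 (adjusted p = 6.46e-09). P-cadherin (Cdh3), found in basal and bud cells, differed by 5.13, 4.09 and 2.44 in LG, HG and eyelid, and Epcam by 5.60, 5.53 and 2.99. On the other side, N-cadherin (Cdh2) was lower in epithelium by 2.30 in the LG, and differed by -3.95 in the HG and -3.73 in the eyelid. Cadherin 11 (Cdh11) read -2.12, -2.58 and -1.59 in LG epithelium and 3.38, 3.33 and 3.37 in LG mesenchyme, which differ by -5.46 ± 0.40. In the HG and the eyelid Cdh11 differed by -4.13 and -4.88, and its second probe gave -2.98, -2.41 and -2.91 over the 3 tissues. T-cadherin (Cdh13), which lacks a cytoplasmic tail, was lower in both gland epithelia (-3.89 and -2.69) and had a difference of 0.22 in the eyelid (adjusted p = 0.577).

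**Figure D2:**
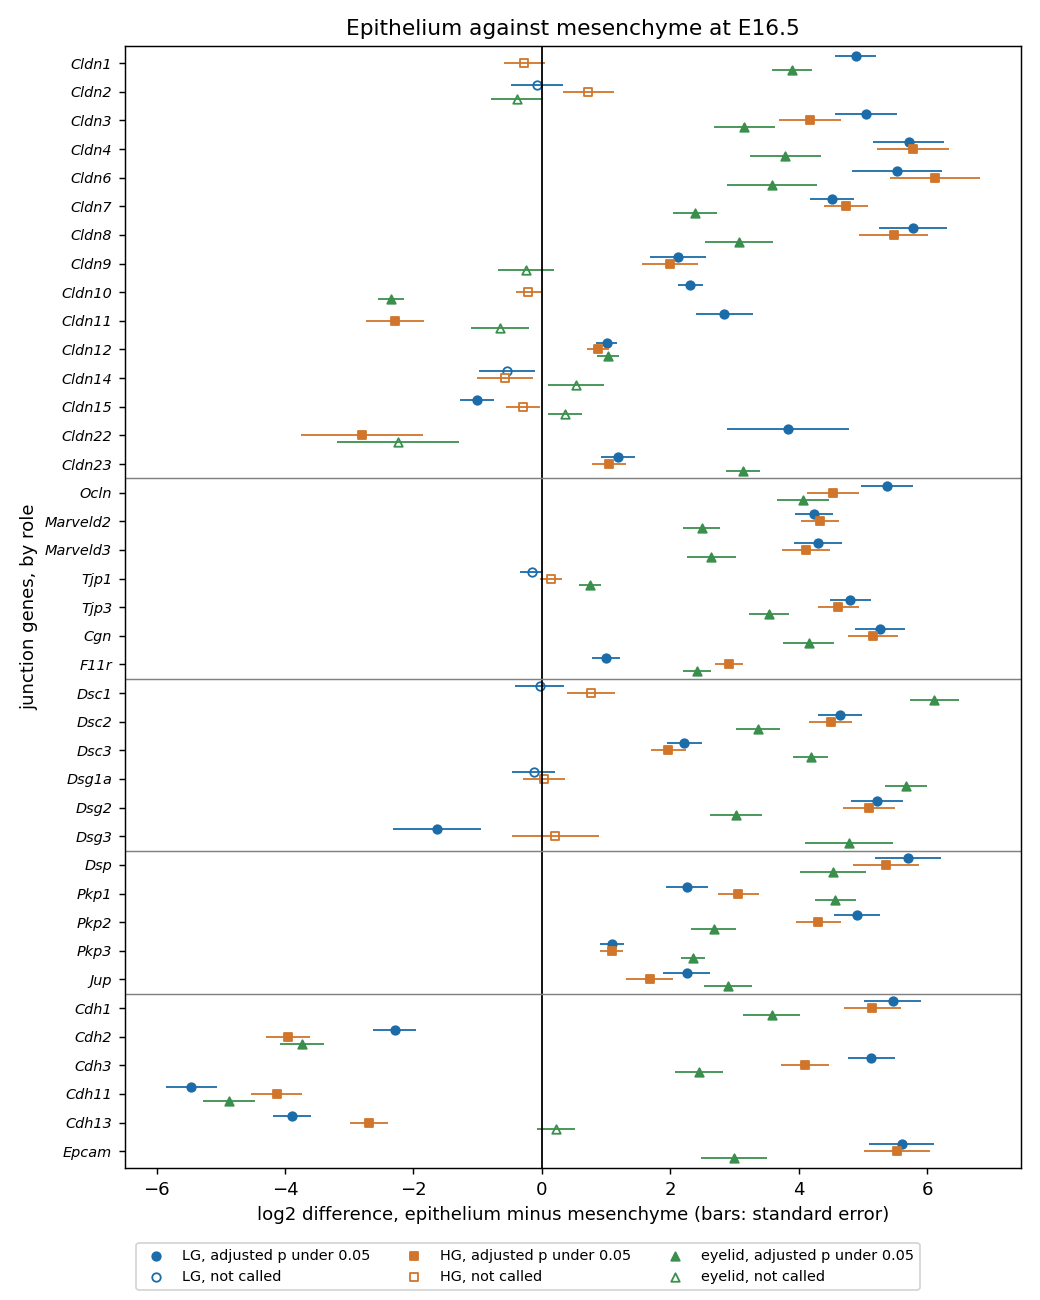
Log2 difference between epithelium and mesenchyme (horizontal axis, bars are standard errors) for each tested junction gene, in LG (circles), HG (squares) and eyelid (triangles), with filled symbols for adjusted p under 0.05. Most symbols lie right of 0, Cdh2 and Cdh11 lie left of it in all 3 tissues, and Cldn1, Cldn10, Cldn11, Cldn22 and Cdh13 lie apart by tissue.

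The size of the compartment difference depended on the tissue for 26 of 39 junction genes by a moderated F test, against 42.3% of all genes. The highest F values were those of Cldn10 (136), Dsg1a (99.9), Dsc1 (77.3), Cldn1 (75.2) and Cdh13 (50.03). Dsc1 and Dsg3 (F 23.6) passed the filter through eyelid epithelium alone and Dsg1a through the 2 eyelid groups. A dependence on tissue is thus built into their being tested. The F tests of Cdh1, Marveld3, Cldn15 and Cdh2 ended on leaving out 1 array: Cdh1 for 10 arrays (adjusted p up to 0.143), Marveld3 for 5 (up to 0.102), Cldn15 without LG mesenchyme replicate 1 or eyelid mesenchyme replicate 2 (up to 0.0565) and Cdh2 without LG epithelium replicate 1 (0.0501). With the replicate number as a block, Cdh1 was not called (adjusted p = 0.0512), and Cldn3 (0.0286) and Jup (0.0221) were. With the slide as a block, Cldn14 (0.00511), Tjp3 (0.0385) and Cldn3 (0.0233) were called, Jup (0.0824) was not and Cdh1 stayed called (0.0423). Eyelid mesenchyme, whose summed epithelium markers of 154 to 369 lay above those of gland mesenchyme, enters each of these F tests, and the part of this was not tested.

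Cldn10, a claudin that forms ion-selective pores and has a known role in secretory epithelia, changed side with the tissue. It read 1.63, 1.67 and 1.90 in LG epithelium and -0.40, -0.72 and -0.61 in LG mesenchyme. In the HG the epithelium arrays read 0.85, 0.78 and 0.76 and the mesenchyme arrays 1.11, 0.94 and 0.97. In the eyelid they read -2.35, -2.40 and -2.04, and 0.33, -0.06 and -0.02. The epithelium was therefore above the mesenchyme in the LG (2.31 ± 0.20, adjusted p = 1.44e-08) and below it in the eyelid (-2.35 ± 0.20, 1.82e-08). In the HG the difference was -0.21 (0.391). Cldn22 also split, at 3.84 ± 0.95 (0.00199) in the LG, -2.81 ± 0.95 (0.0169) in the HG and -2.24 (0.0582) in the eyelid. The HG call of Cldn22 ended without HG epithelium replicate 1 or HG mesenchyme replicate 3 (adjusted p up to 0.0587).

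Cldn11, known from myelin and the testis barrier, stood at -0.83, -0.87 and -0.78 in LG epithelium and -3.13, -3.37 and -4.51 in LG mesenchyme, a difference of 2.84 ± 0.45 (adjusted p = 2.64e-05). In the HG the sides changed: -1.99, -1.45 and -1.13 in epithelium against 0.98, 0.54 and 0.77 in mesenchyme, a difference of -2.29 ± 0.45 (0.000259). Eyelid arrays gave -0.65 (0.246). Cldn1, a barrier claudin of skin, was at least 9.10-fold higher in LG epithelium than in LG mesenchyme, where it was not well above background, and higher by 3.89 in eyelid epithelium. In the HG it differed by -0.27 (adjusted p = 0.484). Cldn15, a pore-forming claudin of the gut, was lower in LG epithelium (-1.01, adjusted p = 0.00324) and not called in the HG (-0.29) or eyelid (0.36). Cldn9 was higher in both gland epithelia (2.12 and 2.0) and gave -0.24 in the eyelid. Cldn2, a cation pore, was not well above background in any embryonic group, and Cldn14 was not called in any tissue (-0.54, -0.57 and 0.53).

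Most desmosomal genes were higher in eyelid epithelium than in either gland epithelium. Of 39 junction genes, 14 were lower in LG than in eyelid epithelium (background 18.3%) and 7 were higher (27.2%), with a median of -0.30 against 0.10 over all genes. For HG epithelium the counts were 13 lower (18%) and 6 higher (26.6%), with a median of -0.38 against 0.11. Of the 6 desmosomal cadherins, 5 were lower in each gland epithelium, and the exception was Dsg2 (0.47 and 0.28). Among those 5, Dsc1, Dsg1a and Dsg3 passed the filter through eyelid groups alone, so their direction was built into their being tested. The same genes count among the 14 and 13 lower. Of the 5 plaque genes, 4 were lower in LG and 5 in HG epithelium.

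Dsg1a, a desmoglein of differentiated epidermis, read 3.47, 3.62 and 3.49 in eyelid epithelium and was not well above background on any gland array. It was at least 428-fold higher than in LG epithelium (adjusted p = 5.02e-14) and at least 316-fold higher than in HG epithelium (1.15e-13). Its probe may also read the near-identical Dsg1b and Dsg1c, so the value is uncertain for Dsg1a alone. Dsc1, its partner in upper epidermal layers, read 1.45, 1.87 and 1.74 there and was at least 119-fold and 88.1-fold higher than in LG and HG epithelium. Dsg3, the desmoglein of basal and mucosal layers, read -0.64, -0.21 and 0.24, with bounds of 32.2-fold and 23.8-fold. Dsc1 and Dsg3 passed the filter through eyelid epithelium alone and Dsg1a through the 2 eyelid groups, so a difference there is built into their being tested. Dsc3, of basal layers, read 0.54, 0.22 and -0.21 in eyelid epithelium against -4.87, -4.71 and -4.74 in LG epithelium, where 1 of 3 arrays was above background, and -3.62, -4.13 and -4.14 in HG epithelium. No arrays overlapped, and the differences were -4.96 ± 0.27 and -4.15 ± 0.27.

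Among plaque genes Pkp1, the plakophilin of stratified epithelia, read 7.62, 7.84 and 7.64 in eyelid epithelium. In LG epithelium it read 1.08, 0.49 and 0.77, and in HG epithelium 2.32, 1.79 and 2.03. The 3 epithelia kept apart without overlap, with differences of -6.92 ± 0.32 (adjusted p = 6.73e-12) for LG and -5.65 ± 0.32 (1.28e-10) for HG against eyelid. Dsp differed by -2.32 and -2.68, Jup by -1.30 and -1.48, and Pkp3 by -1.05 and -1.32. Dsc2 differed by -1.32 and -1.21. Pkp2 was lower in HG epithelium alone among the glands (-0.99, adjusted p = 0.0295, against -0.10 for LG), and the difference between LG and HG epithelium itself, 0.89, was not called (0.196). Without LG epithelium replicate 3 the Jup difference between LG and eyelid lost its call (0.0609). The Pkp2 call ended without HG epithelium replicate 1 or 2 or eyelid epithelium replicate 2 or 3 (up to 0.126).

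**Figure D3:**
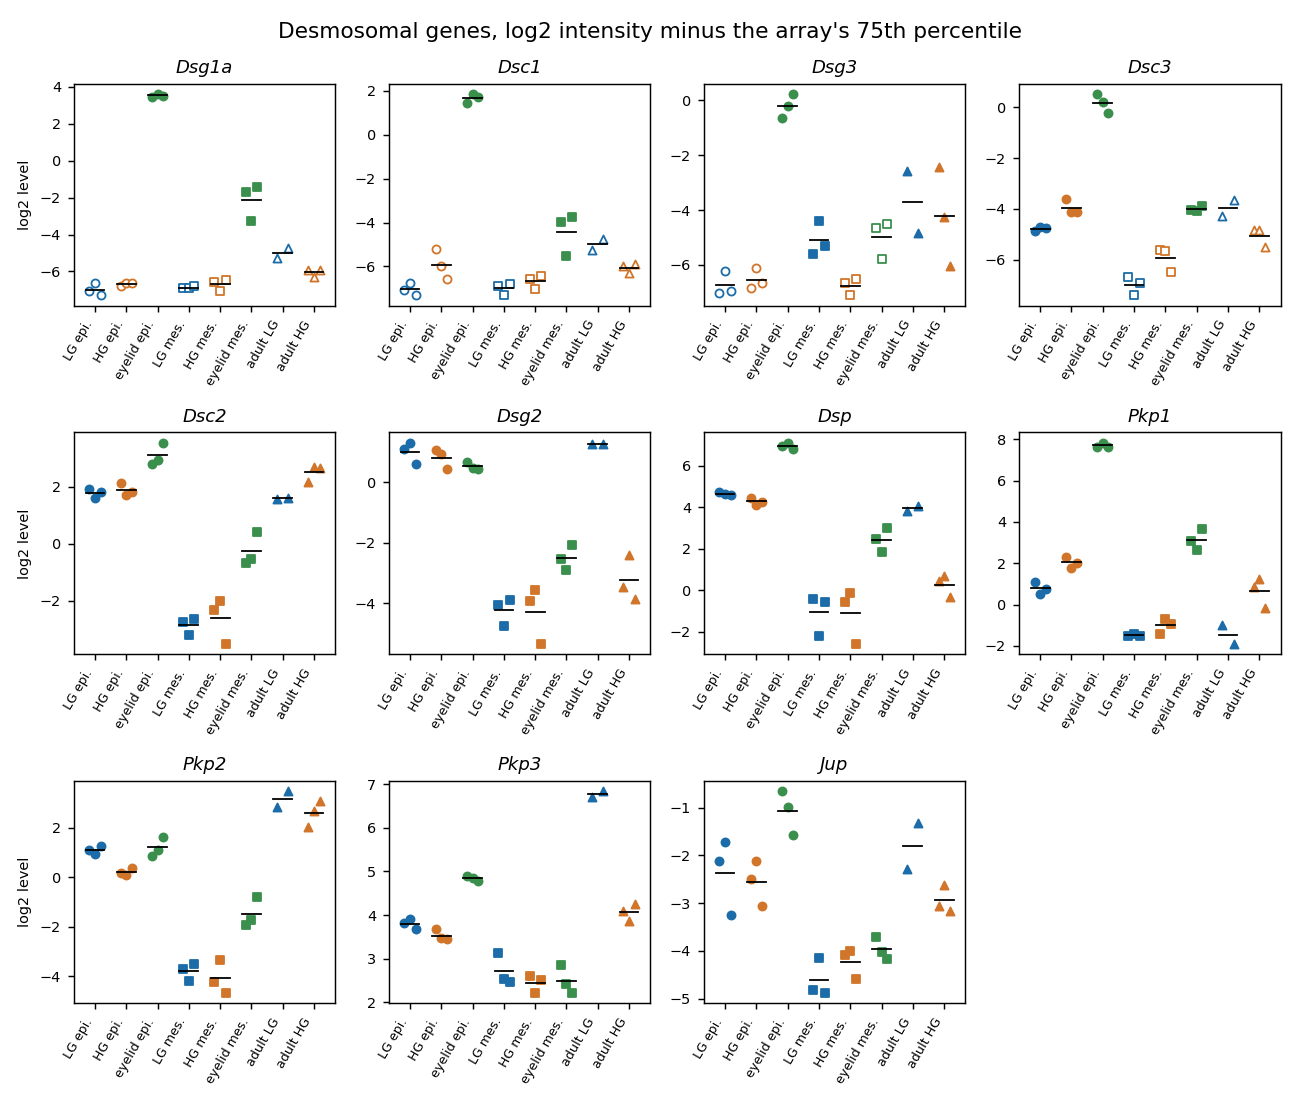
Levels of the 11 desmosomal genes on each array (points) with group means (lines), on the log2 scale relative to the array's 75th percentile; circles are epithelium, squares mesenchyme and triangles adult gland, in blue for LG, orange for HG and green for eyelid, and open symbols mark groups with no array well above background. Dsg1a, Dsc1, Dsg3, Dsc3 and Pkp1 are highest in eyelid epithelium, whereas Dsg2 is at close levels in the 3 epithelia and adult LG.

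Claudins went both ways between eyelid and gland epithelium. Cldn1 read 0.99, 1.72 and 1.82 in eyelid epithelium, -2.07, -2.86 and -1.67 in LG and -3.37, -3.09 and -3.14 in HG epithelium. The eyelid arrays were above all gland arrays, with differences of -3.71 ± 0.32 for LG and -4.71 ± 0.32 for HG. Cldn23 was also higher in the eyelid, with differences of -2.68 and -2.72. The gland epithelia were higher in Cldn10 (4.0 ± 0.20 for LG and 3.06 ± 0.20 for HG), Cldn7 (1.55 and 1.74), Cldn9 (1.96 and 1.78) and Cldn12 (0.96 and 0.62). Cldn22, not well above background in eyelid epithelium, was at least 31.9-fold higher in LG and at least 2.35-fold higher in HG epithelium, the latter call ending without HG epithelium or eyelid epithelium replicate 2 or 3 (adjusted p up to 0.0906). Epcam was higher by 1.95 and 1.52, and its HG call ended without replicate 1 or 3 of HG epithelium or 1 or 2 of eyelid epithelium (up to 0.0793). Cldn3 was called for LG alone (1.21, adjusted p = 0.0470) and lost the call without replicate 1 or 3 of LG epithelium or 1 or 2 of eyelid epithelium (up to 0.163). Ocln (-1.22) and Tjp1 (-0.58) were lower in LG than in eyelid epithelium. The Ocln call ended without LG epithelium replicate 2 or eyelid epithelium replicate 3 (up to 0.0691), and the Tjp1 call without LG epithelium replicate 2 (0.0627). With the replicate block, Tjp1 (-0.41, adjusted p = 0.0350) and Cldn14 (-0.80, 0.0461) were called lower in HG than in eyelid epithelium, and without it they were not. T-cadherin (Cdh13) was lower in both gland epithelia than in the eyelid, with differences of -5.64 and -1.03, the second of which lost its call without HG epithelium replicate 1 or eyelid epithelium replicate 3 (up to 0.0610).

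Few junction genes were called between LG and HG epithelium. Of 39, 2 were higher in LG epithelium (2.96% of all genes) and 2 lower (3.39%), or 1 and 2 with median scaling, with a median of 0.03 against 0.005. Cldn10 was higher by 0.94 ± 0.20 (adjusted p = 0.00547). Cldn22 read 0.11, 0.51 and 0.46 in LG and -3.93, -2.78 and -3.50 in HG epithelium, a difference of 3.76 ± 0.95 (0.0199). Without LG epithelium replicate 1, 2 or 3 or HG epithelium replicate 1 or 3 the Cldn22 call ended, with adjusted p up to 0.0747 and a difference of 3.50 to 4.07. Cldn24, which lies 1676 bases from Cldn22 in RefSeq (GRCm38.p6) and is not among the 41, was higher by 2.98 (0.000657).

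Cdh13 was the junction gene that set LG and HG epithelium farthest apart. It read -3.82, -3.51 and -3.69 in LG and 0.44, 1.08 and 1.29 in HG epithelium, a difference of -4.61 ± 0.30 (adjusted p = 1.77e-08). Pkp1 was lower in LG by -1.27 ± 0.32 (0.0205), a call that ended without LG epithelium replicate 2 or 3 or HG epithelium replicate 1 or 3 (up to 0.102). Of 18 mesenchyme markers, 9 were lower in LG than in HG epithelium, with summed levels of 177 to 224 and 208 to 363, and Cdh13 was higher in gland mesenchyme than in its epithelium; the part of this in the Cdh13 difference was not tested. For genes not called, the 95% confidence intervals of the difference left room for moderate changes: -0.52 to 1.35 for Cdh1, -1.72 to 0.62 for Cldn4, -0.72 to 1.44 for Dsp and -0.53 to 0.20 for Tjp1. Cldn1, at 1.0 (0.0742), was called with the replicate block (0.0182).

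**Figure D4:**
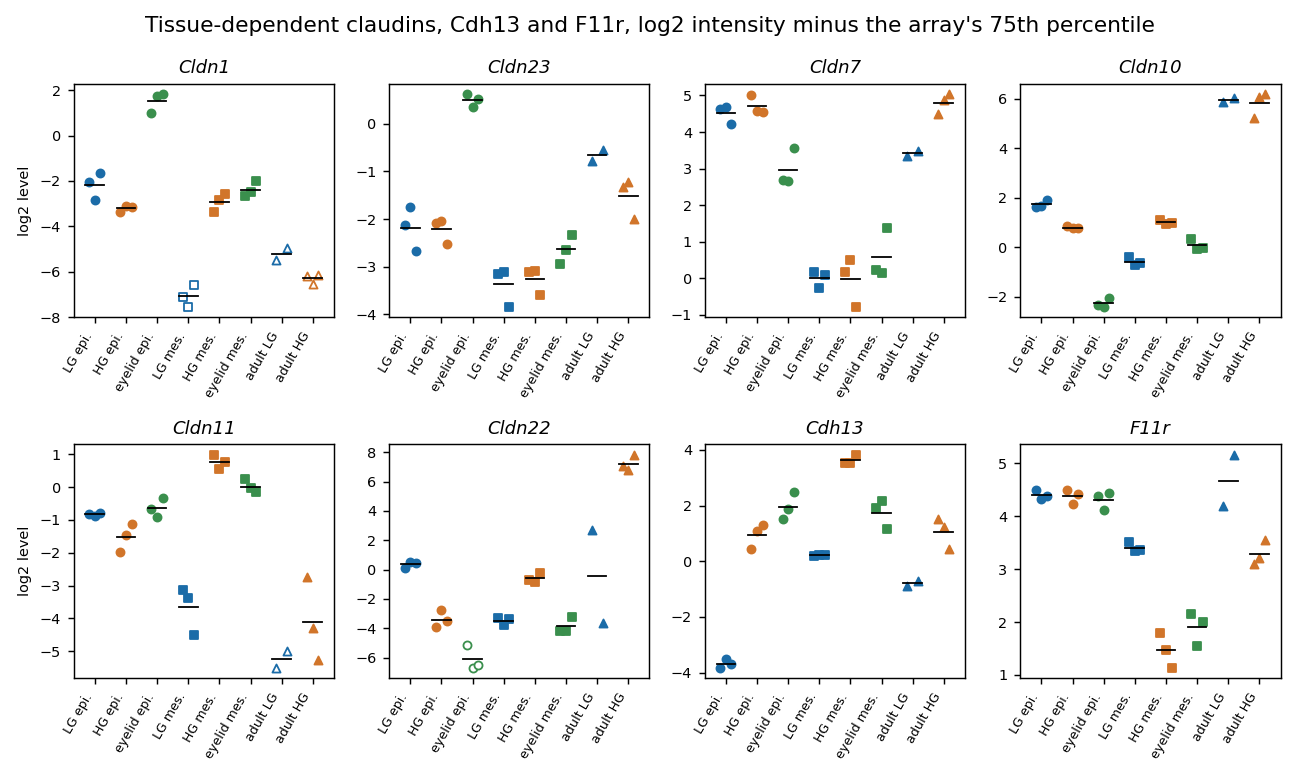
Levels of Cldn1, Cldn23, Cldn7, Cldn10, Cldn11, Cldn22, Cdh13 and F11r on each array (points) with group means (lines), on the log2 scale relative to the array's 75th percentile, with symbols and colours as for the desmosomal genes: circles epithelium, squares mesenchyme, triangles adult gland; blue LG, orange HG, green eyelid; open where no array was well above background. Cdh13 is lowest in LG epithelium, Cldn11 is low in LG mesenchyme and the adult glands, and the adult LG arrays lie far apart for Cldn22.

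Between the mesenchymes of the LG and HG, Cldn11, Cdh13, Cdh2 and Cldn10 were lower and F11r higher in the LG. Of 39, 2 were higher in LG mesenchyme (6.47% of all genes) and 7 lower (7.85%), with a median of 0.02 against -0.03. Cldn11 was lower in LG by -4.43 ± 0.45 (adjusted p = 1.43e-06). Cdh13 read 0.18, 0.23 and 0.23 in LG and 3.53, 3.54 and 3.82 in HG mesenchyme (-3.41 ± 0.30), and N-cadherin (Cdh2) read 1.05, 1.28 and 1.14 against 3.83, 3.56 and 3.85 (-2.59 ± 0.34). Neither gene had overlapping arrays. Cldn10 differed by -1.59, and Cldn1 was at least 5.48-fold lower in LG, where it was not well above background. F11r, on the other hand, was higher in LG mesenchyme, at 3.50, 3.35 and 3.35 against 1.78, 1.46 and 1.14 (1.94 ± 0.22, adjusted p = 5.27e-06). Epithelium markers were summed to 8.15 to 17.4 in LG and 7.57 to 32.3 in HG mesenchyme. Cdh3 (-1.27), Cldn15 (0.94) and Dsc3 were called too, but each call ended on leaving out single arrays. Cdh3 lost it without HG mesenchyme replicate 1 or 2 or LG mesenchyme replicate 2 (up to 0.170). Cldn15 lost it without any of 5 arrays, all of these groups but LG mesenchyme replicate 2 (up to 0.109). Dsc3 was not well above background in either group, its second probe gave 0.20 against -1.07, and it lost the call without HG mesenchyme replicate 1 or 2 or LG mesenchyme replicate 2 (up to 0.0778). Cldn22 (-2.88, 0.0504) was called with the replicate block (0.0423).

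Against eyelid mesenchyme, both gland mesenchymes were lower in many junction genes: 22 of 39 in LG (15.7% of all genes) and 17 in HG (11.3%), with 3 (15.5%) and 4 (11.1%) higher. With normexp background correction the HG split was 13 lower and 6 higher. The medians were -1.22 and -0.89, against 0.04 and 0.06. The genes lower in both include Cldn4 (-2.86 and -2.37), Dsp (-3.49 and -3.52), Pkp1 (-4.61 and -4.14), Cdh1 (-2.18 and -2.28) and Dsg1a (at least 9.45-fold and 6.25-fold). In the same arrays 16 of 18 epithelium markers were lower in each gland mesenchyme than in eyelid mesenchyme. Of 11 measured epidermis and conjunctiva markers, 8 were above background on every eyelid mesenchyme array, with a summed level of 31.8 to 121 against 4.48 to 7.27 in gland mesenchyme and 1426 to 1967 in eyelid epithelium. The part of epithelial RNA in these differences was not tested. The second probes of Dsp (-1.19 and -0.85) and Dsg2 (-0.23 and -0.13, against -1.73 and -1.79) gave smaller differences.

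Some genes went the other way from those. Cldn12 was higher in both gland mesenchymes than in eyelid mesenchyme (0.98 and 0.78). F11r (1.5) and Cldn15 (1.39) were higher in LG, where Cdh13 was lower (-1.53), and Cdh13 (1.88), Cldn10 (0.92) and Cldn22 (3.27) in HG mesenchyme. Cdh2 was lower in LG mesenchyme (-1.80, adjusted p = 0.000523) and gave 0.80 in HG mesenchyme (0.111). Calls that single arrays ended in LG against eyelid mesenchyme were Cldn10 (-0.66; LG replicate 2 or 3, eyelid replicate 1; up to 0.0805) and Cldn23 (-0.73; LG replicate 3, eyelid replicate 2 or 3; up to 0.224). In HG against eyelid mesenchyme they were Cdh3 (-1.16; up to 0.164), Cgn (-1.51; up to 0.0693), Ocln (-1.37; up to 0.121), Marveld3 (-1.08; up to 0.312) and Cldn22 (up to 0.0645). Leaving out HG mesenchyme replicate 3 ended each of these 5. Eyelid mesenchyme replicate 3 ended all but Cldn22, replicate 1 ended Cdh3, Marveld3 and Cldn22, and replicate 2 ended Ocln, Marveld3 and Cldn22. With the replicate block Marveld3 was not called (0.0541), Cldn23 (-0.63, 0.0433) was for HG and Jup (-0.65, 0.0442) for LG.

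At 7 weeks claudins and desmosomal genes were called in both directions between the whole LG and HG. Of 39 junction genes, 15 were higher in adult LG (22.4% of all genes) and 8 lower (33.2%), with a median of 0.14 against -0.13. Of the 15, 4 were not well above background in either gland (Cldn1, Dsc1, Dsc3 and Dsg1a), so no fold is given for them. With each array scaled by its median, which moved the median of all genes by -0.25, 8 were higher and 9 lower. Mesenchyme markers had summed levels of 164 to 193 in adult LG and 342 to 707 in adult HG, with 14 of 18 lower in LG, and their part was not tested.

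The adult LG arrays lay apart in a set of genes that bears on Cldn22. Replicate 1 exceeded replicate 2 by 5 or more on the log2 scale in 19 genes, led by Bpifa2 (13.41), Dcpp3 (12.58), Dcpp1 (11.42), Smr3a (10.89) and Amy1 (10.43), which encode secreted proteins known from saliva. These were picked after their values were seen. Cldn22 ranked 16 of 16324 in that difference, at 6.35, while the other 38 junction genes lay between -1.39 and 2.26, with a median of -0.39. The part of those genes in the Cldn22 value was not tested.

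Cldn22 read 7.03, 6.78 and 7.82 in adult HG and 2.71 and -3.64 in adult LG. Every HG array was above both LG arrays, and the difference of -7.68 ± 1.06 (adjusted p = 7.50e-06) was -10.85 (8.43e-11) without LG replicate 1 and -4.50 (4.04e-06) without replicate 2. The probe was not well above background on LG replicate 2, so -10.85 is not an exact size. Cldn8, a claudin of tight, ion-retaining epithelia, read 3.03 and 3.70 in LG against -1.22, -0.77 and -0.29 in HG (4.13 ± 0.59, 1.16e-05). Cldn2 read -2.82 and -2.27 in LG and its probe was not well above background on any HG array, so no fold is given. It passed the filter through adult LG alone, so it had to differ there. Cldn14, a claudin needed in the inner ear, read 0.03 and -0.92 in LG against -3.08, -1.93 and -3.66 in HG (2.44 ± 0.49, 0.000358). Cldn10 read 5.87 and 6.04 in LG and 5.20, 6.07 and 6.18 in HG, and these overlapped (0.14, 0.625). Cldn7 was lower in LG (-1.37), and Cldn9 (1.93) and Cldn23 (0.85) higher. F11r was higher in LG by 1.38 ± 0.25 (0.000117).

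Of the desmosomal genes, Dsg2 read 1.26 and 1.25 in adult LG and -3.46, -2.40 and -3.86 in adult HG, a difference of 4.50 ± 0.45 (adjusted p = 1.43e-07). Dsp read 3.83 and 4.04 against 0.45, 0.69 and -0.33 (3.67 ± 0.57, 3.01e-05), and its second probe gave 1.99. Pkp3 read 6.70 and 6.84 against 4.09, 3.87 and 4.25 (2.70 ± 0.21, 3.26e-09). The 2 glands did not overlap in any of these 3 genes. Pkp1 went the other way (-2.09 ± 0.36, 8.38e-05), Jup was higher in LG (1.15) and Dsc2 lower (-0.92). Among cadherins, Cdh13 (-1.85) was lower in LG, Cdh3 at least 2.84-fold and Cdh11 at least 1.23-fold lower, while Cdh2 was higher (1.02) with overlapping arrays. Cdh1 (-0.37, 0.554) and Epcam (-0.05, 0.947) were not called. Cldn15 was at least 1.32-fold lower in LG. With normexp background correction the direction turned for Cldn15 (0.24) and Cdh11 (0.25). LG replicate 1 was also left out alone, which leaves 1 LG array. The calls that ended without it were Cldn9 (1.36, 0.0694), Cldn15 (-0.81, 0.0890), Cdh11 (up to 0.276, also without HG replicate 1), Dsc2 (up to 0.148, also without LG replicate 2 or HG replicate 2 or 3), Dsc1 (also without each other adult array, up to 0.237) and Cdh2 (up to 0.289, also without HG replicate 2 or 3). Without LG replicate 2, Cldn1 (0.144), Cldn23 (0.122, also without HG replicate 3), Dsc3 (0.0991), Dsg1a (up to 0.190, also without HG replicate 2) and Jup (up to 0.280, also without HG replicate 1 or 3) ended. With the replicate block Dsc2 was not called (0.0711), and Cldn3 (1.34, 0.0160) and Cldn11 (-1.24, 0.0462) were. That block sets adult LG arrays beside arrays of other slides, so these calls rest on no shown pairing.

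Adult glands were set against the embryonic epithelium of the same gland, a comparison of whole tissue with separated tissue. Markers of other cell types moved with it: the summed level of 11 immune markers was 7.25 to 8.95 in LG epithelium and 51.4 to 116 in adult LG, and 11.3 to 19.0 and 36.6 to 154 in the HG. That of 10 acinar and secretory markers went from 49.0 to 89.9 up to 1697 to 2460 in the LG, and from 55.5 to 107 up to 824 to 1151 in the HG. That of 7 adipocyte markers was 0.631 to 1.33 in HG epithelium and 87.8 to 106 in adult HG, and 12 skeletal muscle markers reached 102 in adult HG from at most 4.15. The part of these cell types in the calls was not tested. In the LG 14 of 39 junction genes were higher in the adult (31.2% of all genes) and 12 lower (38.7%), with a median of 0.27 against -0.10. In the HG 12 were higher (34.4%) and 15 lower (35.6%), with a median of 0.08 against 0.06. With median scaling, 7 were higher and 14 lower in the HG. Dsc1 and Dsg1a, among the 14 of the LG, were not well above background in either group. Dsc3 (0.81), also among the 14, was not well above background on either adult LG array and was on only 1 LG epithelium array. Its size is therefore not exact.

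The claudins Cldn4 and Cldn6 and P-cadherin were lower in both adult glands than in embryonic epithelium. Cldn6 read 1.22, 1.13 and 1.95 in LG and 1.76, 1.48 and 1.71 in HG epithelium and was not well above background in either adult gland, at least 24.1-fold lower in the LG (adjusted p = 2.49e-06) and at least 55.4-fold lower in the HG (1.65e-08). Cldn4 read -3.56 and -3.98 in adult LG and -2.57, -2.93 and -4.40 in adult HG, with a difference of -5.06 ± 0.56 in the HG. This probe was not well above background on either adult LG array, and a second probe gave -3.68 in the LG. Cdh3 was at least 44.0-fold lower in adult LG and differed by -4.19 ± 0.37 in the HG. Cldn11 was lower as well, at least 5.04-fold in the LG and by a difference of -2.58 in the HG, and Cldn1 at least 1.95-fold and 1.92-fold. Pkp1 (-2.23 and -1.41), Tjp1 (-0.63 and -0.59, the HG arrays overlapping) and Cdh11 (at least 2.09-fold in the LG, and -1.54 in the HG with overlapping arrays, or 0.024 within slide 1) were lower in both.

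Cldn10 was higher in both adult glands than in their embryonic epithelium, by 4.22 ± 0.22 (adjusted p = 1.06e-11) in the LG and 5.02 ± 0.20 (1.45e-13) in the HG. Marveld3 rose by 1.86 and 2.69, Pkp2 by 2.04 and 2.37, Pkp3 by 2.97 and 0.54, Cldn14 by 3.56 and 1.22 and Cldn23 by 1.52 and 0.70. Cldn22 rose in the HG by 10.61 ± 0.95 (1.17e-08), from -3.93, -2.78 and -3.50. In the LG it gave -0.83 (0.499), -4.00 (8.49e-06) without adult LG replicate 1 and 2.35 (0.00141) without replicate 2, so that 1 array sets its direction there. Dsg2, Dsp and Cldn8 were lower in adult HG than in HG epithelium (-4.05, -4.00 and -2.29). In the LG, Dsg2 (0.26) and Dsp (-0.70) were not called and Cldn8 was higher (1.48). Cldn9 was lower in both (-1.15 and -2.91), F11r in the HG (-1.09) and Cdh2 in the HG (-2.27). Cdh13 was higher in adult LG (2.88) and gave 0.12 in the HG. Cldn2 was at least 6.36-fold higher in adult LG, but it passed the filter through adult LG alone, so this direction was built in. Dsg3 was at least 2.81-fold higher in adult LG and at least 1.46-fold higher in adult HG. Its probe was above background on only 1 array of each adult gland. In the HG Tjp3 (1.46), Cgn (1.06), Cldn12 (0.68) and Cldn15 (0.77) were called higher, where the LG gave 0.53, 0.62 and 0.29 for the first 3. For those 3, no change in the difference between LG and HG was called from embryonic epithelium to adult gland. Dsc3 was at least 1.13-fold lower in adult HG, although its second probe gave 0.22 and normexp 0.12. Ocln was called higher in adult LG (1.09), but its second probe gave -1.55 and the mean of its probes -0.23.

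Several of these calls rested on single arrays. In the LG, leaving out adult LG replicate 1 ended those of Cdh1 (-1.57; 0.101), Cldn7 (-1.10; 0.0829), Tjp1 (0.0769) and Dsg3 (0.0734). Epcam (-1.39; up to 0.179) and Ocln (up to 0.219) ended without either adult LG array, Epcam also without LG epithelium replicate 1 or 3 and Ocln without 1 or 2. Cldn8 (up to 0.194; also LG epithelium replicate 2 or 3), Cldn9 (up to 0.398; also each LG epithelium array) and Dsc3 (0.81; up to 0.250; also LG epithelium replicate 1) ended without adult LG replicate 2. In the HG, Cgn (up to 0.106) ended without adult HG replicate 3 or HG epithelium replicate 2, Pkp3 (0.0552) without adult HG replicate 3, Cldn15 (0.0784) without adult HG replicate 1, Cldn14 (up to 0.139) without adult HG replicate 2 or HG epithelium replicate 3, and Cldn23 (up to 0.112) without adult HG replicate 1 or 2 or HG epithelium replicate 3. With the replicate block Epcam was not called in the LG (0.0613), and Cldn3 (1.23, 0.0201) and Cldn12 (0.36, 0.0481) were. The block sets adult LG arrays beside arrays of other slides here too, so no shown pairing stands behind these calls.

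**Figure D5:**
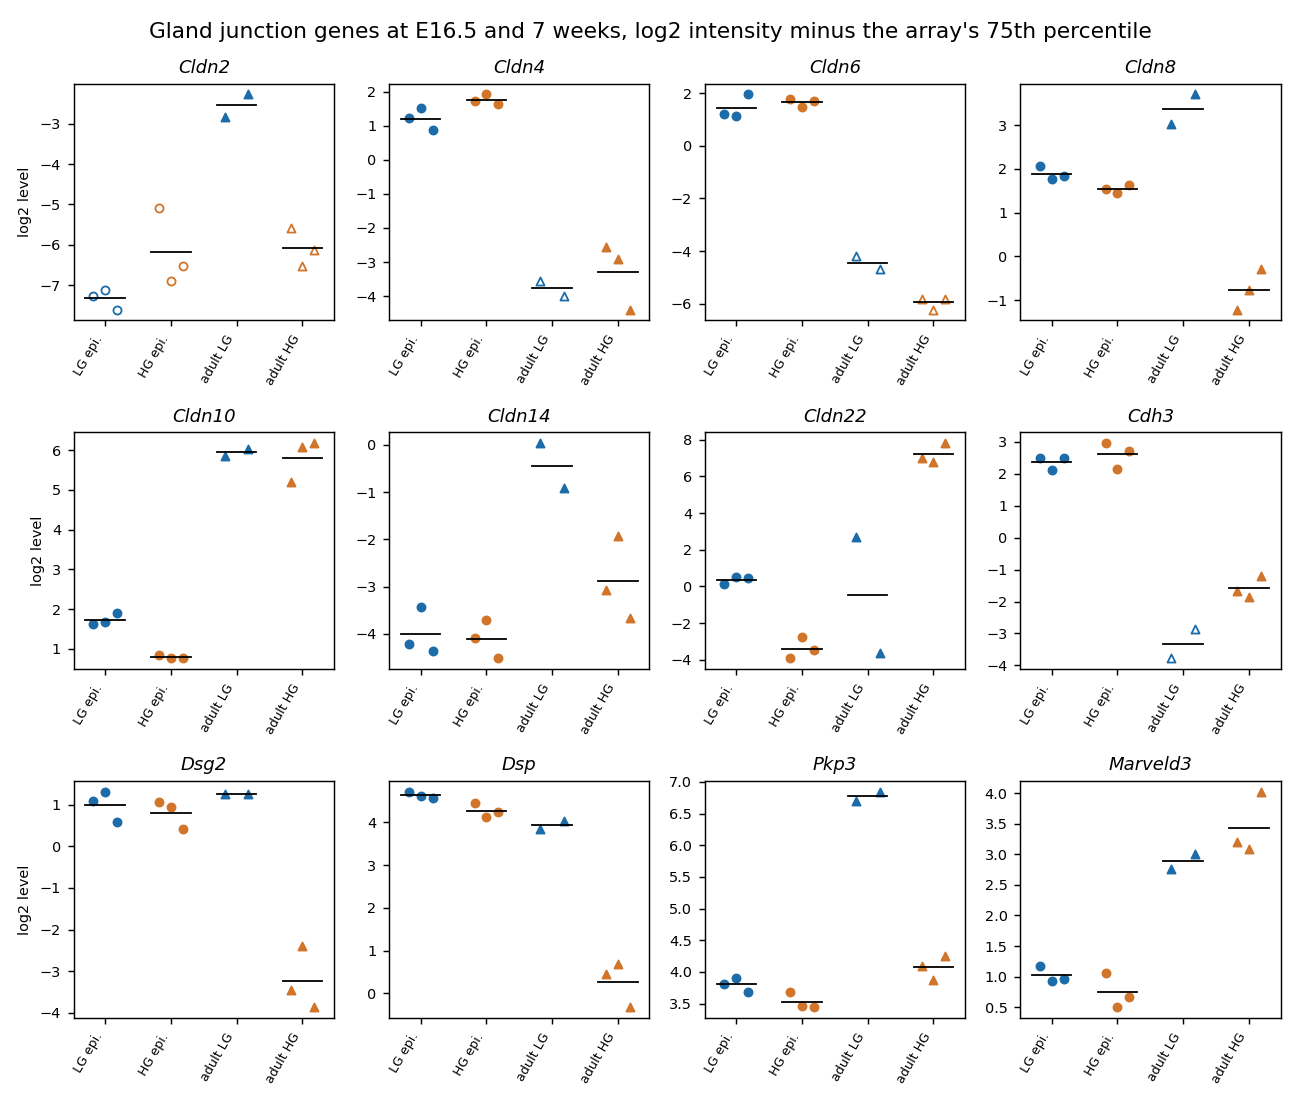
Levels of 12 junction genes in LG epithelium, HG epithelium (circles, embryonic day 16.5), adult LG and adult HG (triangles, 7 weeks) on each array, with group means as lines, on the log2 scale relative to the array's 75th percentile; blue is LG, orange HG, and open symbols mark groups with no array well above background. Cldn4, Cldn6 and Cdh3 are low in both adult glands, Cldn10 is high in both, Dsg2 and Dsp are low in adult HG, and the adult LG arrays read 2.71 and -3.64 for Cldn22.

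The difference between LG and HG in whole adult glands differed from that in embryonic epithelium for 18 junction genes. Of these, 13 had a larger LG value relative to HG in the adult (18.1% of all genes) and 5 a smaller one (27.1%). The median over all tested junction genes was 0.08, against -0.15 over all genes. Age and the step from separated epithelium to whole gland cannot be told apart in this comparison, called the change with age for short. Among claudins, Cldn8 (3.78 ± 0.80, adjusted p = 0.000838) and Cldn14 (2.35 ± 0.65) changed to the LG side and Cldn22 to the HG side (-11.44 ± 1.43, 3.46e-06). The Cldn22 value was -14.61 without adult LG replicate 1 and -8.26 without replicate 2. Cldn2 and Dsc3 were both called positive, without an exact size. Cldn2 passed the filter through adult LG alone, so its direction was built into its being tested. Dsc3 was not well above background in either adult gland. Among desmosomal genes, Dsg2 (4.31 ± 0.61, 1.49e-05), Dsp (3.31 ± 0.77, 0.00191) and Pkp3 (2.42 ± 0.28, 1.15e-06) all moved to the LG side. Cdh13 changed by 2.76, Cdh2 by 1.96 and F11r by 1.36, while Dsc1 (2.18) and Dsg1a (1.36) had no group above background. Negative changes were those of Cldn10 (-0.80), Cldn11 (-1.84), Cldn15 (-1.21, but 0.27 with normexp) and Cdh3 (-1.51). Cldn11, Cldn15 and Cdh3 were not well above background on either adult LG array, and Cldn22 was above it on only 1. The sizes of these changes are therefore not exact. Adult LG replicate 1 was also left out alone, which leaves 1 adult LG array. Cldn14 (0.0545), Cldn15 (0.0891), Cldn9 (1.76; up to 0.212), Cldn10 (up to 0.117), Cldn11 (up to 0.125) and Cdh3 (up to 0.192) ended without it. Of these, Cldn9, Cldn10, Cldn11 and Cdh3 also ended without single arrays of other groups, as did Dsg1a (up to 0.135, among others without adult LG replicate 2).

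Other junction genes were read from lists chosen by function, beside backgrounds of 38.7% higher and 32% lower in epithelium with the mean over tissues. Of 8 further desmosome and cornified-junction genes, 8 were higher in epithelium with the mean over tissues, among them Perp (4.90), Ppl (3.88) and Evpl (3.67), of which Ppl and Evpl encode plakin linkers. Of 37 further tight junction and polarity genes, 16 were higher and 10 lower, and of 31 further adherens junction genes 13 and 14, shares of higher genes near the background. The polarity gene Crb3 (4.85) and the tricellular junction genes Lsr (4.41) and Ildr1 (4.34) led the first, and Jam2 (-4.94), Cldn5 (-4.33) and Esam (-4.25), known from blood vessels, the second. The adherens junction genes included Plekha7 (4.47) and Nectin4 (4.13) on the epithelial side and Cdh5 (-4.42), Cdh10 (-4.35) and Cdh9 (-4.30) on the other. Of 14 gap junction genes, 8 were higher and 5 lower (Gja5, -4.26).

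A further list held 17 transcription and splicing regulators known for epithelial identity or for its repression. Of these, 10 were higher in epithelium, with Grhl1 (5.01), Ovol1 (4.91) and Grhl3 (4.88) at the top. The other 7 were lower, with Snai1 (-4.75), Twist2 (-4.44) and Zeb1 (-4.35) at the bottom. In LG and HG against eyelid epithelium, low values in the desmosome and gap junction lists were those of Cdsn (-7.23 and -6.70), which encodes corneodesmosin, Dsg1b (-6.13 and -6.65), Dsg1c (-5.25 and -5.10) and the skin connexin genes Gjb6 (-6.40 and -6.05) and Gjb2 (-3.91 and -3.84). For these genes it was not checked whether gland epithelium stood above background, so the sizes may not be exact. The probes of Dsg1b and Dsg1c may also read the near-identical Dsg1a. In adult glands Igsf5, a tight junction immunoglobulin protein, was higher than in embryonic epithelium by 7.95 in the LG and 8.01 in the HG, and Jam2 by 5.23 and 4.43. Between adult LG and adult HG, the connexin gene Gjb1 was higher in LG by 5.64. For Igsf5, Jam2, Gjb1 and the other genes of these lists, it was also not checked whether the lower side stood above background. Their sizes may not be exact either.

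Several of the 41 lie next to each other in the genome. By the RefSeq table of GRCm38.p6, 14 of them have another of the 41 as the next protein-coding gene, in 8 pairs: Ocln and Marveld2, Cldn6 and Cldn9, Cldn3 and Cldn4, Cdh1 and Cdh3, Dsg2 and Dsg3, Dsc1 and Dsc2, Dsc2 and Dsc3, and Dsc3 and Cdh2. Neighbours differed in level pattern in several pairs. Cdh2 and Dsc3, which lie far apart on chromosome 18, had opposite compartment differences, -3.33 and 2.79 with the mean over tissues. In LG against eyelid epithelium Dsg2 gave 0.47, whereas Dsg3 was at least 32.2-fold lower in LG. Dsg3 passed the filter through eyelid epithelium alone, so its difference was built into its being tested. Ocln and Marveld2, in contrast, were both higher in epithelium in each tissue, as were Cldn3 and Cldn4, and Cdh1 and Cdh3.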

How the data were processed

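Each array's scanner file, as deposited, gives the intensity of each spot, background-subtracted by the authors' scanner software, and 0 or 1 flags for background, saturation and outlying pixels (unit: other, per the file headers). Agilent Feature Extraction 11.5.1.1 is named in the submitters' processing notes, and the file headers of slide 1 name 11.0.1.1. The authors' deposited series matrix holds the same intensity, averaged over spots. Slides 1, 2 and 3 held embryonic replicates 1, 2 and 3, adult HG replicates 1, 2 and 3, and, on slides 2 and 3, adult LG replicates 1 and 2.

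Outlier spots were left out, spots of a probe were averaged, and the log2 value minus the array's 75th percentile was taken. Probes were named through RefSeq accessions (27509 of 55681). The filter retained probes with a share of 0.5 or more of their spots flagged above background on all arrays of some group, and each gene was read by its brightest retained probe. All 23 arrays entered 1 limma 3.58.1 fit (R 4.3.3, package data.table, version 1.17.8; Python 3.11.15 and matplotlib 3.10.9 for sequences and figures), with two-sided moderated tests, Benjamini-Hochberg adjustment over 16324 genes and a threshold of 0.05. Differences are on the log2 scale with limma's standard error (SE). Where 1 side was not above background, a bound was taken against the dimmest detected probes. The fit was tested on simulated data.

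Residuals of arrays with the same replicate number, which the labels give, correlated at 0.171 to 0.578 in the 9 embryonic comparisons, so the numbers were taken to pair those arrays, and at -0.340 to 0.370 with adult glands. For embryonic arrays pair and slide cannot be told apart. Adult LG replicates 1 and 2 were on slides 2 and 3, so the replicate block sets them beside arrays of other slides.

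The 41 genes and the lists of other genes and markers were chosen with earlier results of these data known. All 41 were to be named, with array values where they were called and at least 2-fold or at the ends of their role group, and of each further list at most 3 genes at each end. Some genes of those lists are not reported here. Alternatives tried were quantile and median scaling, normexp on the median signals with an offset of 50 (mean raw signals were not used here), other filters, other probes, the slide or replicate as a block, and leaving out arrays.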

Additional observations from a re-analysis of the deposited data

Results flagged for a closer look

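By the moderated F test, 26 junction genes had a compartment difference that varied with tissue, and the F value of each is given here. Among claudins they were Cldn1 (75.2), Cldn7 (14.4), Cldn8 (7.78), Cldn9 (9.30), Cldn10 (136), Cldn11 (33.9), Cldn15 (6.57), Cldn22 (15.0) and Cldn23 (19.4). Among other tight junction genes they were Marveld2 (12.4), Marveld3 (5.82), Tjp1 (7.11) and F11r (20.3). Among desmosomal genes they were Dsc1 (77.3), Dsc3 (19.8), Dsg1a (99.9), Dsg2 (9.23), Dsg3 (23.6), Pkp1 (13.3), Pkp2 (10.8) and Pkp3 (15.7). Among the cadherins and Epcam they were Cdh1 (5.16), Cdh2 (6.94), Cdh3 (13.4), Cdh13 (50.03) and Epcam (8.52). 

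The log2 difference between LG and HG in the adult glands differed from that in embryonic epithelium, tested as a difference of differences. It was larger in the adult for Cldn2 (4.70), Cldn8 (3.78), Cldn9 (1.76), Cldn14 (2.35), F11r (1.36), Dsc3 (1.90), Dsg2 (4.31), Dsp (3.31), Pkp3 (2.42), Cdh2 (1.96) and Cdh13 (2.76), and smaller for Cldn10 (-0.80), Cldn11 (-1.84), Cldn15 (-1.21), Cldn22 (-11.44) and Cdh3 (-1.51). The sizes for Cldn2 and Dsc3 are not exact. Cldn2 passed the filter through adult LG alone, so its direction was built into its being tested. Dsc3 was not well above background in either adult gland. The sizes for Cldn11, Cldn15, Cdh3 and Cldn22 are not exact either. The first 3 were not well above background on either adult LG array, and Cldn22 was above it on only 1. Dsc1 and Dsg1a are left out here because no group was above background. Among the F values, Dsc1, Dsg3 and Dsg1a passed the filter only through eyelid groups, so a dependence on tissue is built into their being tested.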

How the results depend on the processing

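Of 585 tested values of single junction genes, the slide as a block ended 2 calls and added 13, the replicate block ended 5 and added 12, quantile normalization ended 24 and added 10, median scaling ended 44 and added 5, and normexp ended 16 and added 36. The series matrix values changed none. With the replicate block, 30 junction genes were higher and 3 lower in epithelium over the 3 tissues, as without it. Calls that the block changed are given with the results, and it changed no other.

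Counts moved under these settings. For LG against HG mesenchyme, 1 gene was higher with quantile normalization, median scaling, normexp or a 2-fold minimum, and 4 with only the groups compared, in place of 2. For LG against HG epithelium, 1 was higher with median scaling or a 2-fold minimum in place of 2. For adult LG against adult HG, 8 were higher with median scaling or with only the groups compared, in place of 15, and 5 lower with only the groups compared, in place of 8. Adult HG against HG epithelium had 7 higher with median scaling in place of 12, the change with age 3 negative with median scaling in place of 5, eyelid epithelium 5 lower with only the groups compared in place of 3, and HG against eyelid mesenchyme 2 higher at 2-fold in place of 4. With normexp the latter comparison had 6 higher and 13 lower.

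Directions turned with normexp for Cldn15 in adult LG against adult HG (0.24), in adult LG against LG epithelium (0.72) and in the change with age (0.27), for Cdh11 in adult LG against adult HG (0.25) and for Dsc3 in adult HG against HG epithelium (0.12). They turned for Ocln in adult LG against LG epithelium with the mean of its probes (-0.23), for Cdh11 in adult HG against HG epithelium within slide 1 (0.024), and for Cldn22 in adult LG against LG epithelium without adult LG replicate 2 (2.35), against -4.00 without replicate 1. The cause was not tested. Median scaling moved the median of all genes by -0.47 in adult LG against LG epithelium, -0.25 in adult LG against adult HG, -0.29 in the change with age, -0.18 in adult HG against HG epithelium, and 0.23 and 0.18 in LG and HG against eyelid epithelium. Normexp moved it by 0.25, 0.19 and 0.22 in the first 3.

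Leaving out 1 array gave these ranges of genes higher and lower: 29 to 30 and 3 to 4 in epithelium over the 3 tissues, 29 to 29 and 4 to 5 in the LG, 25 to 26 and 4 to 5 in the HG, 29 to 29 and 3 to 4 in the eyelid, 1 to 2 and 1 to 3 for LG against HG epithelium, 6 to 7 and 12 to 14 for LG and 4 to 7 and 11 to 13 for HG against eyelid epithelium, 1 to 2 and 5 to 8 for LG against HG mesenchyme, 3 to 3 and 20 to 22 for LG and 3 to 4 and 13 to 17 for HG against eyelid mesenchyme, 9 to 13 and 5 to 8 for adult LG against adult HG, 12 to 13 and 9 to 11 for adult LG and 10 to 12 and 15 to 15 for adult HG against embryonic epithelium, and 11 to 14 and 1 to 5 for the change with age. The F test called 23 to 30. Where a left-out array leaves 1 adult LG array, that array is assumed to vary like the other groups. The adult LG values are limited by dim signal and by the 2 arrays of that group.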
